A study of Homo sapiens with 6 samples.

Results

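DNA repair and checkpoint genes were followed as a set of 45 symbols, matched exactly among the 43424 symbols counted in HepG2 cells, and all 45 were found. HepG2 is a human liver cancer line that keeps much of the hepatocyte programme. The tested cultures received 10 µM tamarixetin, a methylated relative of the flavonol quercetin, for 24 h (n = 3), and the control cultures carry the label of no treatment (n = 3); every culture is labelled wild type. The protocol in the labels gives the compound in medium with little serum and names neither a vehicle nor the medium of the controls, so a difference of medium and the effect of the compound cannot be told apart. The labels call the libraries biological replicates without saying what separates them, so the p-values measure the spread between these samples, which may be technical.

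Cells hold several repair systems that recognise different lesions. Homologous recombination and the Fanconi pathway deal with double-strand breaks and cross-linked strands at replication forks, mismatch repair corrects copying errors, base excision repair replaces single damaged bases, and nucleotide excision repair cuts out bulky lesions. The kinases ATM and ATR sense broken or single-stranded DNA and act through CHEK2 and CHEK1 to hold the cell cycle. Many of these genes, like those of the replication fork, are transcribed most in cells that enter or pass through S phase.

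Libraries held 11980585 to 16168855 counts, and the 45 genes took 0.189% to 0.191% of the counts in tamarixetin libraries, against 0.208% to 0.216% in control libraries. Between libraries of 1 group the chi-square per gene lay between 2.33 and 3.40, above counting noise, and no library was taken as a copy of another. Levels are given in CPM, counts divided by the TMM-scaled library size. A gene was called with an adjusted p under 0.05 in edgeR's quasi-likelihood test, adjusted over all 13198 genes tested. The hepatocyte markers ALB, AFP and APOA1 stood between 642 and 1958 CPM in every tamarixetin library and between 1414 and 4235 CPM in every control library, while CD3E and DES, markers of T cells and muscle, had no count in any library. The 12 markers of other cells together summed to 110 to 114 CPM in tamarixetin libraries and 124 to 126 CPM in control libraries, mostly from ACTA2 and COL1A1.

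Tamarixetin was followed by lower levels of a part of the repair genes, and the differences were small. Of the 45 genes 44 were tested, 18 fell and 3 rose (APEX1, ATR and PMS2), and 23 were not called. Over all genes 43.7% were called, 21.3% lower and 22.4% higher, against 40.9% lower and 6.82% higher among the repair genes. Among 140 further tested genes of the same pathways, 17.9% were lower and 15% higher. The 45 genes and the lists were chosen with earlier results of these data known. The shares thus describe the set and do not test it. The median log2 fold change was -0.17 over the repair genes and 0.00038 over all genes tested. No repair gene changed 2-fold: the falls ran from -0.94 (UNG) to -0.21 (RECQL4) on the log2 scale. In all 18 genes that fell, every tamarixetin library stood under every control library; groups without overlap were found in 25 of the 44 repair genes and in 50.5% of all genes. In bulk RNA, fewer cells in the phase that uses a gene and less RNA of it per cell cannot be told apart.

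**Figure D1:**
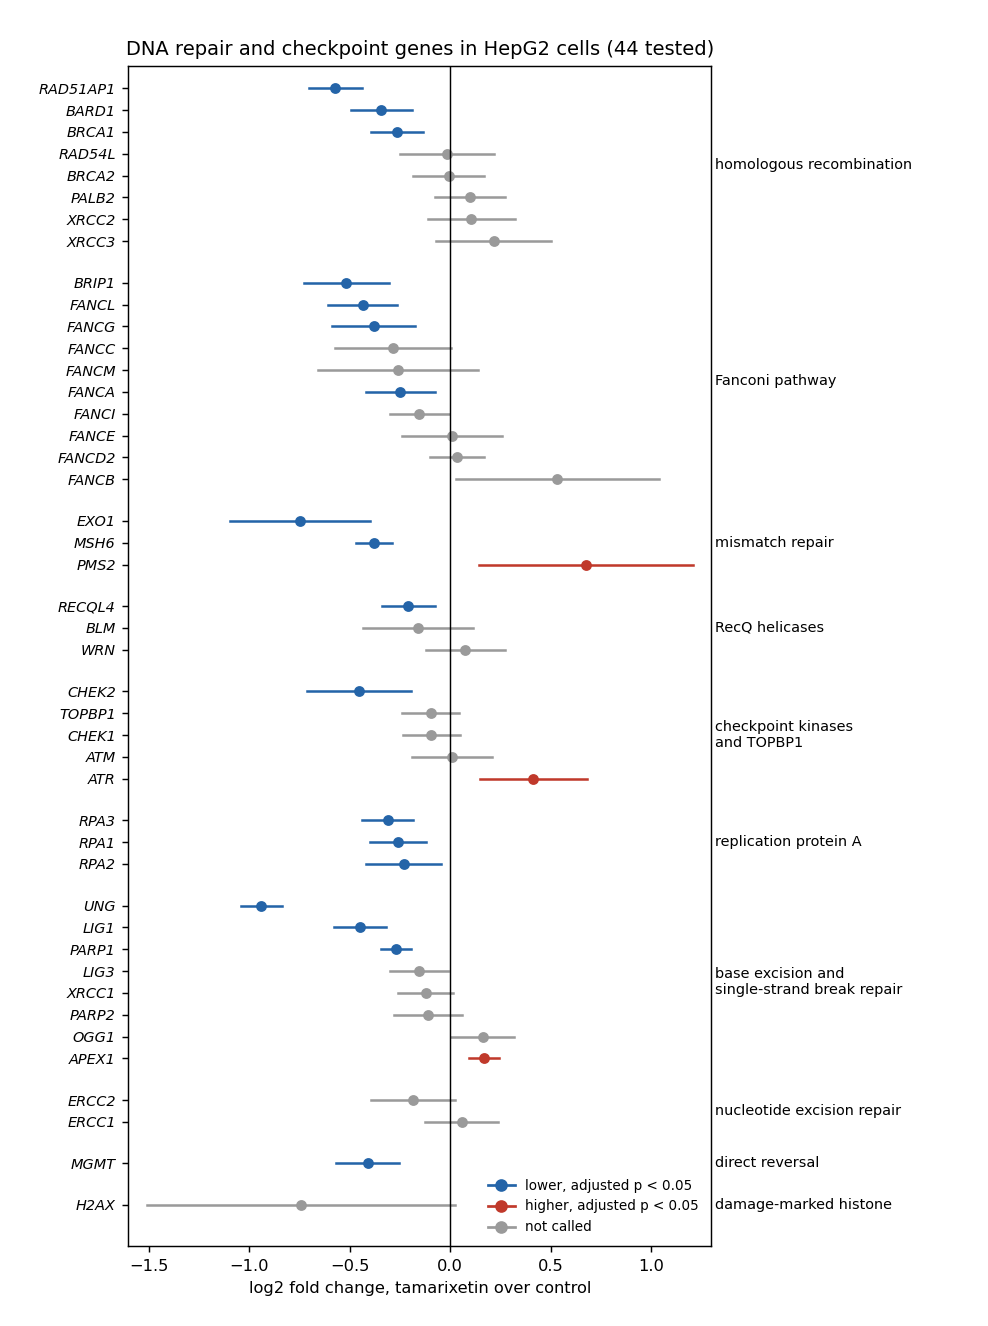
Log2 fold change of each repair and checkpoint gene, tamarixetin over control, with its 95% interval, by repair role; blue marks genes called lower, red genes called higher and grey genes not called. UNG at -0.94 stands farthest to the left, and only PMS2, ATR and APEX1 are red.

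The largest fall among these genes was in UNG, the glycosylase that removes uracil from DNA and opens base excision repair (chromosome 12, 109097597 to 109110992, GRCh38.p14 in RefSeq). UNG had 80.4, 77.1 and 75.5 CPM in tamarixetin libraries, against 164, 140.4 and 142 CPM in control libraries. The lowest control library was thus far above the highest tamarixetin library. The fold was 0.522 (log2 fold change -0.94, SE 0.053, adjusted p = 3.96e-30). The gene makes a nuclear and a mitochondrial form from separate starts, which counts taken at the 3′ end of the mRNA do not separate.

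Promoter windows of 5 genes that fell and of 2 that rose are shown. They mark a short GC-rich core of the kind that E2F factors, regulators of replication genes, are known to bind. The genes were picked as examples: the 5 hold the core and the 2 do not. BARD1, BRIP1, CHEK2, EXO1 and FANCA fell without a match, and 8 of 21 genes not called hold one, so the core does not separate the groups. Each line is RefSeq sequence of GRCh38.p14, 5′ to 3′ on the strand of the gene and ending at or before the start site; capitals mark TTCCCGC or TTGGCGC, or the reverse complement of either. BRCA1 and UNG have a second listed start whose window is not printed: that of BRCA1, at chr17:43170328-43170427, holds no match, and that of UNG, at chr12:109097977-109098076, holds 1.
UNG, chr12:109097497-109097596, + strand: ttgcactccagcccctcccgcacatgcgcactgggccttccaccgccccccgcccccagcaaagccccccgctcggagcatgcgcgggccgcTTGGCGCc
RAD51AP1, chr12:4538790-4538889, + strand: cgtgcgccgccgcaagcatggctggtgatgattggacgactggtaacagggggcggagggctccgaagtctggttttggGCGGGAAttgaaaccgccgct
BRCA1, chr17:43125365-43125464, - strand: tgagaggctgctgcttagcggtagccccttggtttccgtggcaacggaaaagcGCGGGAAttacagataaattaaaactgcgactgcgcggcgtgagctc
LIG1, chr19:48170405-48170504, - strand: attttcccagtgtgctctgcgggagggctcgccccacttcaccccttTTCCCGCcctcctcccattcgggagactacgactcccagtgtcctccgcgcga
PARP1, chr1:226408094-226408193, - strand: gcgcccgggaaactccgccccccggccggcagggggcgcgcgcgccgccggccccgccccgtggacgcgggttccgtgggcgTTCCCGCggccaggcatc
APEX1, chr14:20455126-20455225, + strand: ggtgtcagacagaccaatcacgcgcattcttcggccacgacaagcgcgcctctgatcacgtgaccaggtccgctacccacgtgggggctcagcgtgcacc
ATR, chr3:142578734-142578833, - strand: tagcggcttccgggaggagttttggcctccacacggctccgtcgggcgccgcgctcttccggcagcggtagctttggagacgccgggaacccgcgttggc

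Of the 45 genes 40 had a promoter in the table, read over the 250 bases before each listed start on both strands. The core TTCCCGC or TTGGCGC was found in 10 of 15 genes that fell, in 8 of 21 that were not called and in 0 of 3 that rose. The share was 66.7% of the genes that fell, 45% of all repair genes in the table and 15.3% of 10357 genes tested. It was 52.9% among 34 replication genes. The longer forms TTTCCCGC and TTTGGCGC, which contain or overlap that core, were held by 1 of the 15 genes that fell (LIG1). The share was 6.67% of the genes that fell, 4.76% of those not called, 32.4% of replication genes and 3.93% of genes tested. TTTGAA, the letters of an element of genes of late cell cycle, was held by 2 of the 15. That is 13.3%, against 23.8% of the genes not called and 11.9% of genes tested. CCAAT was held by 8 of the 15, or 53.3%, against 57.1% of the genes not called and 41.4% of genes tested. The short core was searched after the longer forms had been counted, and a match of letters does not show binding.

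Homologous recombination genes fell in 3 of 8 tested and none rose. The share called was 37.5%, all lower, against 43.7% over all genes tested (21.3% lower, 22.4% higher). RAD51AP1, which helps the recombinase pair with its template, had 44.7, 45.7 and 43.7 CPM in tamarixetin libraries, against 71.2, 65.9 and 62.3 CPM in control libraries (log2 fold change -0.57, SE 0.067, adjusted p = 3.14e-12). BRCA1 is the tumour suppressor that promotes the resection of breaks and recruits the later factors. It had 53.3, 57.1 and 50.6 CPM in tamarixetin libraries, against 68.6, 65.3 and 59.9 CPM in control libraries (log2 fold change -0.27, SE 0.066, adjusted p = 0.000453). BARD1, the partner without which BRCA1 is not a ubiquitin ligase, had 34.0, 33.3 and 32.6 CPM in tamarixetin libraries, against 43.5, 43.7 and 39.6 CPM in control libraries (log2 fold change -0.34, SE 0.078, adjusted p = 0.00015). The subunits of this pair thus fell side by side, with no overlap of the groups in either.

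The other 5 genes of homologous recombination did not pass. BRCA2, which loads the recombinase, had 27.1, 29.02 and 27.5 CPM in tamarixetin libraries, against 31.8, 26.8 and 25.4 CPM in control libraries, and the 95% interval of its log2 fold change ran from -0.18 to 0.17. PALB2, the bridge between BRCA1 and BRCA2, averaged 30.3 ± 3.78 CPM with tamarixetin and 28.2 ± 0.509 CPM in controls (SD, n = 3 each; log2 fold change 0.10, SE 0.090). The interval of PALB2 ran from -0.08 to 0.27, so a fall as large as that of BARD1 lies outside it. RAD54L, a motor protein of strand exchange, XRCC2 and XRCC3, both members of recombinase-related complexes, had log2 fold changes of -0.02 (SE 0.119), 0.11 (SE 0.110) and 0.22 (SE 0.146). The sign of BRCA2 and RAD54L turned with scaling by library size alone (0.028 and 0.020).

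**Figure D2:**
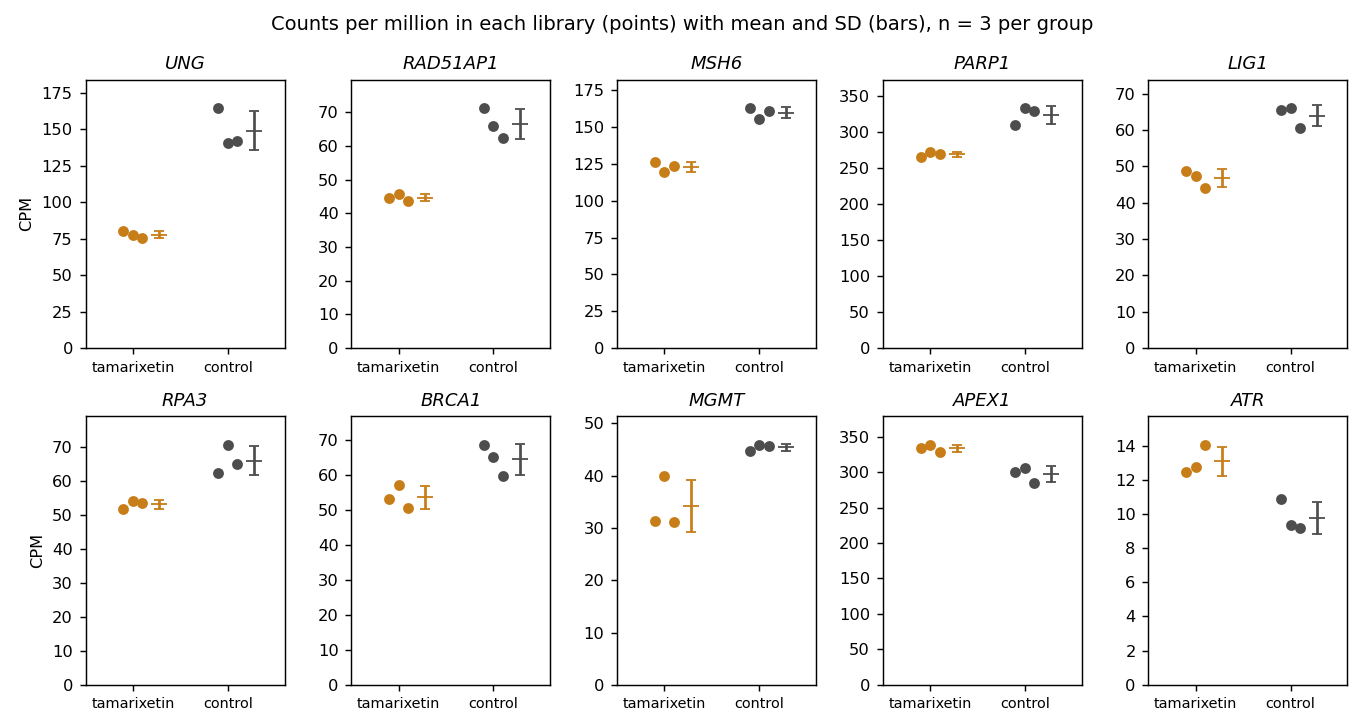
Level in CPM of 10 repair genes in each library, tamarixetin left and control right, with the mean and SD of 3 libraries beside the points; each axis starts at 0. In the first 8 genes every tamarixetin point lies under every control point (UNG 75.5 to 80.4 against 140.4 to 164 CPM), and in APEX1 and ATR every tamarixetin point lies above.

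Fanconi pathway genes fell in 4 of 10 tested and none rose. The share called was 40%, all lower, against 43.7% over all genes tested (21.3% lower, 22.4% higher). BRIP1, a helicase that binds BRCA1, had 15.5, 20.4 and 15.7 CPM in tamarixetin libraries, against 26.3, 26.7 and 21.1 CPM in control libraries (log2 fold change -0.52, SE 0.107, adjusted p = 3.15e-05). FANCL, the ubiquitin ligase of the core complex, had 28.6, 23.8 and 24.8 CPM in tamarixetin libraries, against 33.0, 35.2 and 36.5 CPM in control libraries (log2 fold change -0.44, SE 0.087, adjusted p = 1.61e-05). In both genes every tamarixetin library was under every control library, by least in BRIP1, where tamarixetin replicate 2 came close to control replicate 3. FANCG and FANCA, a pair of core complex proteins that bind each other, fell by 0.38 (SE 0.106, adjusted p = 0.00194) and 0.25 (SE 0.088, adjusted p = 0.016) on the log2 scale. The call of FANCA was lost without tamarixetin replicate 1 (adjusted p = 0.0625) and without control replicate 3 (adjusted p = 0.0547).

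FANCD2 and FANCI, the pair on which the core complex places ubiquitin, were not called. FANCD2 averaged 51.0 ± 1.10 CPM with tamarixetin and 49.7 ± 2.20 CPM in controls (SD, n = 3 each), with a 95% interval of the log2 fold change from -0.10 to 0.17. FANCI had 38.6, 40.3 and 36.8 CPM in tamarixetin libraries, against 43.0, 44.6 and 41.4 CPM in control libraries, so the groups did not overlap, but the test did not pass (log2 fold change -0.15, adjusted p = 0.0927; 0.0342 with upper-quartile scaling). The sign of FANCD2 turned with upper-quartile scaling, at -0.00053. FANCE, FANCC and FANCM had log2 fold changes of 0.01, -0.28 and -0.26, and FANCC passed without tamarixetin replicate 1 (-0.44, adjusted p = 0.0304). FANCE turned to -0.027 with upper-quartile scaling. FANCB, at 3.90 ± 0.981 CPM with tamarixetin and 2.67 ± 0.163 CPM in controls (SD, n = 3 each), had low counts (log2 fold change 0.53, adjusted p = 0.0854).

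All 3 mismatch repair genes were called, in different directions, against 43.7% of all genes tested. MSH6, which finds mispaired bases, had 126, 119 and 124 CPM in tamarixetin libraries, against 163, 156 and 161 CPM in control libraries (log2 fold change -0.38, SE 0.046, adjusted p = 2e-11). EXO1, the nuclease that removes the faulty strand, had 5.52, 4.05 and 5.44 CPM in tamarixetin libraries, against 9.19, 8.42 and 7.65 CPM in control libraries (log2 fold change -0.75, SE 0.177, adjusted p = 0.000251). Both fell with no overlap of the groups. PMS2, the nicking subunit, rose (log2 fold change 0.68, SE 0.272, adjusted p = 0.0356), but on 44, 56 and 51 counts in tamarixetin libraries, against 34, 21 and 43 counts in control libraries. Its call was lost without tamarixetin replicate 2 (adjusted p = 0.126) or 3 (adjusted p = 0.133), without control replicate 1 (adjusted p = 0.0603) or 2 (adjusted p = 0.149), in DESeq2 (adjusted p = 0.0693) and in limma-voom (adjusted p = 0.0547). PMS2 has near-identical pseudogenes, so reads can be lost or shared and its level is uncertain.

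All 3 subunits of replication protein A, the trimer that covers single-stranded DNA in replication and in repair, were called lower. The share called lower over all genes tested was 21.3%. RPA3 had 51.6, 53.9 and 53.5 CPM in tamarixetin libraries, against 62.1, 70.4 and 64.9 CPM in control libraries (log2 fold change -0.31, SE 0.065, adjusted p = 3.18e-05). RPA1 had 42.1, 42.6 and 41.7 CPM in tamarixetin libraries, against 48.1, 50.2 and 53.1 CPM in control libraries (log2 fold change -0.26, SE 0.072, adjusted p = 0.00165). RPA2 had 23.7, 21.8 and 22.8 CPM in tamarixetin libraries, against 24.9, 28.1 and 27.4 CPM in control libraries (log2 fold change -0.23, SE 0.094, adjusted p = 0.0386). The groups were apart in all 3, by least in RPA2, and in 50.5% of all genes tested. None of the 3 kept the call when the test asked for a fold over 1.2. The call of RPA2 was lost without tamarixetin replicate 2 (adjusted p = 0.139) or 3 (adjusted p = 0.0721), without control replicate 2 (adjusted p = 0.118) or 3 (adjusted p = 0.0975), with scaling by library size alone (adjusted p = 0.0835), with no filter (adjusted p = 0.0771) and in DESeq2 (adjusted p = 0.0685). RPA3 lies to 94.8% of its length within UMAD1, which also fell (log2 fold change -0.56) but does not reach the last 500 bases of RPA3. UMAD1 had 52 to 86 counts in tamarixetin libraries and 80 to 133 in control libraries. RPA3 had 649 to 805 and 845 to 1036. The part of UMAD1 in the fall of RPA3 was not tested.

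Checkpoint genes moved unevenly. CHEK2, the kinase under ATM, had 11.8, 9.41 and 10.1 CPM in tamarixetin libraries, against 14.03, 13.3 and 15.5 CPM in control libraries (log2 fold change -0.45, SE 0.131, adjusted p = 0.00283). ATR, which senses stalled forks, had 12.4, 12.7 and 14.02 CPM in tamarixetin libraries, against 10.9, 9.34 and 9.15 CPM in control libraries (log2 fold change 0.41, SE 0.136, adjusted p = 0.00877; 0.0515 without control replicate 3). ATR was thus higher in every tamarixetin library while CHEK2 was lower in every one. ATM, at 21.3 ± 1.23 CPM with tamarixetin and 21.1 ± 1.33 CPM in controls, CHEK1, at 44.2 ± 3.11 CPM with tamarixetin and 47.3 ± 2.42 CPM in controls, and the ATR activator TOPBP1, at 48.5 ± 4.86 CPM with tamarixetin and 52.2 ± 4.17 CPM in controls, were not called (SD, n = 3 each). Their 95% intervals of the log2 fold change ran from -0.19 to 0.21, from -0.24 to 0.05 and from -0.24 to 0.04. The sign of ATM turned with upper-quartile scaling (-0.027).

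Base excision and single-strand break repair genes fell in 3 of 8 tested (37.5%), and 1 rose (12.5%). Over all genes tested 21.3% were lower and 22.4% higher. PARP1, the enzyme that marks nicked DNA with poly(ADP-ribose), had 265, 272 and 269 CPM in tamarixetin libraries, against 309, 333 and 329 CPM in control libraries (log2 fold change -0.27, SE 0.039, adjusted p = 4.51e-09). LIG1, the ligase of replication and of long-patch repair, had 48.8, 47.5 and 43.96 CPM in tamarixetin libraries, against 65.4, 65.9 and 60.6 CPM in control libraries (log2 fold change -0.45, SE 0.067, adjusted p = 1.28e-08). APEX1, the endonuclease that cuts the sites left by glycosylases, had 334, 338 and 329 CPM in tamarixetin libraries, against 301, 306 and 284 CPM in control libraries (log2 fold change 0.17, SE 0.038, adjusted p = 0.00014). APEX1 was thus higher in every tamarixetin library, next to the fall of UNG, which acts one step earlier. The last bases of APEX1 overlap PIP4P1, a gene that fell (log2 fold change -0.26).

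The other genes of base excision repair were not called. OGG1, the glycosylase for oxidised guanine, had 38.2, 36.4 and 37.6 CPM in tamarixetin libraries, against 34.6, 31.3 and 34.1 CPM in control libraries, with no overlap but without passing (log2 fold change 0.16, adjusted p = 0.0911; 0.0360 with scaling by library size alone). LIG3 and its scaffold XRCC1, which seal nicks outside replication, had log2 fold changes of -0.15 (SE 0.074) and -0.12 (SE 0.071). LIG3 passed without tamarixetin replicate 3 (adjusted p = 0.0211), without control replicate 3 (adjusted p = 0.0482) and with upper-quartile scaling (adjusted p = 0.0294), and XRCC1 passed without control replicate 2 (adjusted p = 0.0408). PARP2, the smaller relative of PARP1, averaged 29.1 ± 1.03 CPM with tamarixetin and 31.4 ± 2.24 CPM in controls (SD, n = 3 each; log2 fold change -0.11, SE 0.086).

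MGMT, which takes alkyl groups off guanine in a single step, had 31.4, 39.9 and 31.2 CPM in tamarixetin libraries, against 44.6, 45.8 and 45.8 CPM in control libraries (log2 fold change -0.41, SE 0.080, adjusted p = 8.17e-06). Tamarixetin replicate 2 was nearest to the controls but still under each of them. Of the RecQ helicases, which unwind structures at forks, RECQL4 fell (log2 fold change -0.21, SE 0.067, adjusted p = 0.0079), at 51.7 ± 2.63 CPM with tamarixetin and 59.6 ± 3.77 CPM in controls (SD, n = 3 each). The call of RECQL4 was lost without tamarixetin replicate 1 (adjusted p = 0.0639) and without control replicate 1 (adjusted p = 0.0523). BLM (-0.16, SE 0.140) and WRN (0.08, SE 0.10) were not called. BLM turned sign without control replicate 2 (0.014), and WRN without control replicate 3 (-0.087).

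Of 3 nucleotide excision repair genes 2 were tested. ERCC1, a subunit of the nuclease that cuts on one side of a lesion, averaged 26.5 ± 1.49 CPM with tamarixetin and 25.5 ± 1.19 CPM in controls, and ERCC2, a helicase of the factor TFIIH, 17.8 ± 0.829 CPM with tamarixetin and 20.3 ± 2.33 CPM in controls (SD, n = 3 each). Neither was called (log2 fold change 0.06, adjusted p = 0.653, and -0.18, adjusted p = 0.162). ERCC5, the nuclease for the other side, had 3, 0 and 2 counts in tamarixetin libraries and 0, 0 and 3 counts in control libraries and was not tested. The whole of ERCC5 lies within the annotated readthrough gene BIVM-ERCC5, which had 0 counts in every library. H2AX, the histone that is phosphorylated around breaks, had 21, 13 and 11 counts in tamarixetin libraries, against 33, 17 and 27 counts in control libraries (log2 fold change -0.74, SE 0.391, adjusted p = 0.118). H2AX lies wholly within the span of DPAGT1, which had 722 to 987 counts in tamarixetin libraries and 608 to 1018 in control libraries. The part of these overlaps in the low counts was not tested. In all, 19 of the 45 genes had another annotated gene over the last 500 bases before their 3′ end, among them 5 of the 21 that were called (FANCA, FANCL, MSH6, APEX1 and MGMT). The strand setting of the counting is not given in the sources used here, so reads from both genes cannot be told apart at those ends.

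Ratios of partner genes within a library do not depend on the scaling. A set of 9 ratios was taken after the values had been seen, as a description. The ratio of UNG to OGG1 was 2.11, 2.12 and 2.01 in tamarixetin libraries, against 4.75, 4.48 and 4.17 in control libraries. The ratio of UNG to APEX1 was 0.241, 0.228 and 0.2296 in tamarixetin libraries, against 0.545, 0.459 and 0.500 in control libraries. Both thus stood far lower with tamarixetin (log2 -1.10 in each). The ratio of ATR to ATM was 0.591, 0.629 and 0.618 in tamarixetin libraries, against 0.480, 0.467 and 0.440 in control libraries, higher in each tamarixetin library than in each control library. BRCA1 to BRCA2 (log2 -0.27), LIG1 to LIG3 (-0.30) and FANCI to FANCD2 (-0.19) were lower without overlap. BRCA1 to BARD1 (0.08), CHEK2 to CHEK1 (-0.36) and PARP1 to PARP2 (-0.16) overlapped between the groups. For the 6 ratios without overlap the exact permutation test gave a two-sided p = 0.1, the smallest that 3 against 3 allows (adjusted 0.15 over 9 ratios).

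**Figure D3:**
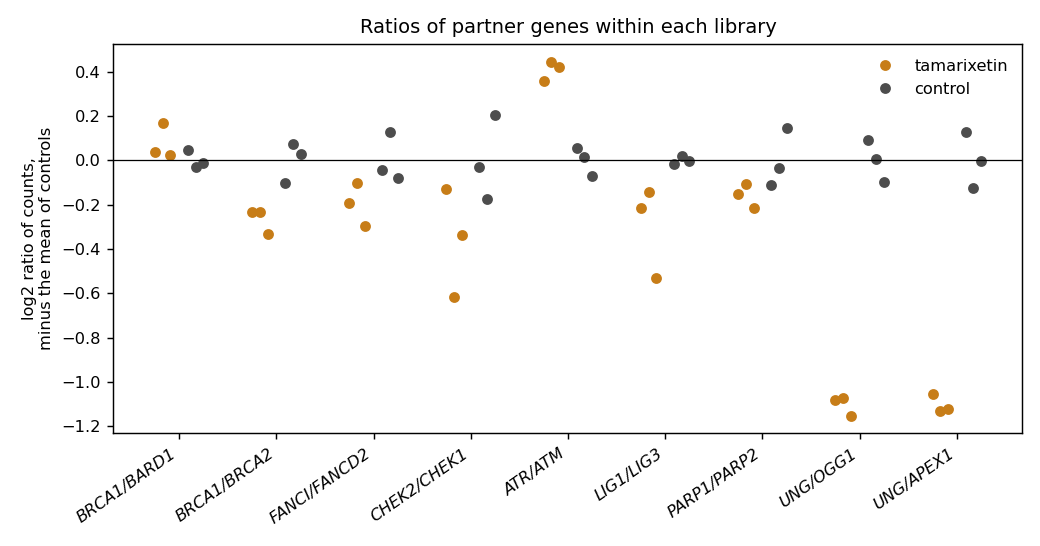
Log2 ratio of the counts of partner genes in each library, minus the mean of the 3 control libraries; orange points at the left of each pair are tamarixetin libraries, grey points at the right are control libraries. UNG/OGG1 and UNG/APEX1 lie about 1.10 under the controls, ATR/ATM lies 0.41 above, and BRCA1/BARD1 overlaps the controls.

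The rest of the repair machinery, 142 further genes of the same pathways of which 140 were tested, moved in both directions: 25 fell (17.9%) and 21 rose (15%), with a median log2 fold change of -0.013. Over all genes tested the shares were 21.3% lower and 22.4% higher, and the difference between the shares was not tested. Further homologous recombination genes fell in 6 of 33 and rose in 4. RMI2, a subunit of the complex around BLM, fell by 0.80 (SE 0.057), to 59.8 ± 2.04 CPM with tamarixetin, against 104 ± 4.78 CPM in controls (SD, n = 3 each). MUS81, a nuclease for joined strands (0.47), RAD50, of the complex that holds broken ends (0.21), RBBP8, its resection cofactor (0.21), and ABRAXAS1, a scaffold of BRCA1 (0.28), rose. Among 13 further Fanconi genes USP1 (-0.27) and WDR48 (-0.41), the enzyme and cofactor that take ubiquitin off FANCD2, were among 3 that fell, and CENPX (0.45) and ERCC4 (0.28), the partner of ERCC1, rose.

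Further base excision genes fell in 4 of 20 (20%) and rose in 3 (15%), against 21.3% lower and 22.4% higher over all genes tested. FEN1, the flap nuclease of replication and long-patch repair (-0.44), and HPF1, the cofactor of PARP1 (-0.58), fell, while the glycosylases NEIL2 (0.58), NTHL1 (0.48) and TDG (0.34) rose. The glycosylase NEIL1, singled out after its values were seen, fell on low counts (-0.89, SE 0.227, adjusted p = 0.000694), at 3.06 ± 0.549 CPM with tamarixetin and 5.62 ± 1.41 CPM in controls (SD, n = 3 each). Glycosylases thus moved in both directions. Of 20 further nucleotide excision genes 6 rose (30%) and 4 fell (20%): the damage sensors DDB2 (-0.50) and DDB1 (-0.19), CETN2 (-0.42) and RAD23B (-0.24) fell. ALKBH2 and ALKBH3, which reverse alkylation by oxidation, both rose (0.34, SE 0.096, and 0.41, SE 0.084), while MGMT fell.

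Few genes of end joining (13.3%) and damage bypass (6.67%) were called, against 43.7% of all genes tested (21.3% lower, 22.4% higher). Of 15 end joining genes 2 fell, XRCC6, which binds broken ends (-0.17), and MAD2L2 (-0.18), and none rose. Of 15 genes of damage bypass UBE2B rose (0.17) and none fell. Of 18 checkpoint mediators 5 fell (27.8%) and 3 rose (16.7%). CLSPN, which passes the signal from ATR to CHEK1, was among those that fell (-0.42). The phosphatase CDC25B (0.46) and the clamp genes RAD17 (0.32) and HUS1 (0.49) rose.

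Replication fork genes were set beside the repair genes because they share much of the fork machinery. They fell in 22 of 39 (56.4%) and rose in 2 (5.13%), with a median log2 fold change of -0.27. Over all genes tested 21.3% were lower and 22.4% higher. RRM2 and RRM1, subunits of ribonucleotide reductase, and the helicase subunit MCM5 fell by 0.68, 0.52 and 0.80. Mitosis genes fell in 11 of 36 (30.6%) and rose in 8 (22.2%). TOP2A (-0.40) and NUSAP1 (-0.67) fell and PTTG1 (0.50) rose. The replication list summed to 2116 to 2139 CPM in tamarixetin libraries and 2611 to 2660 CPM in control libraries, and its part in the fall of the repair genes was not tested.

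**Figure D4:**
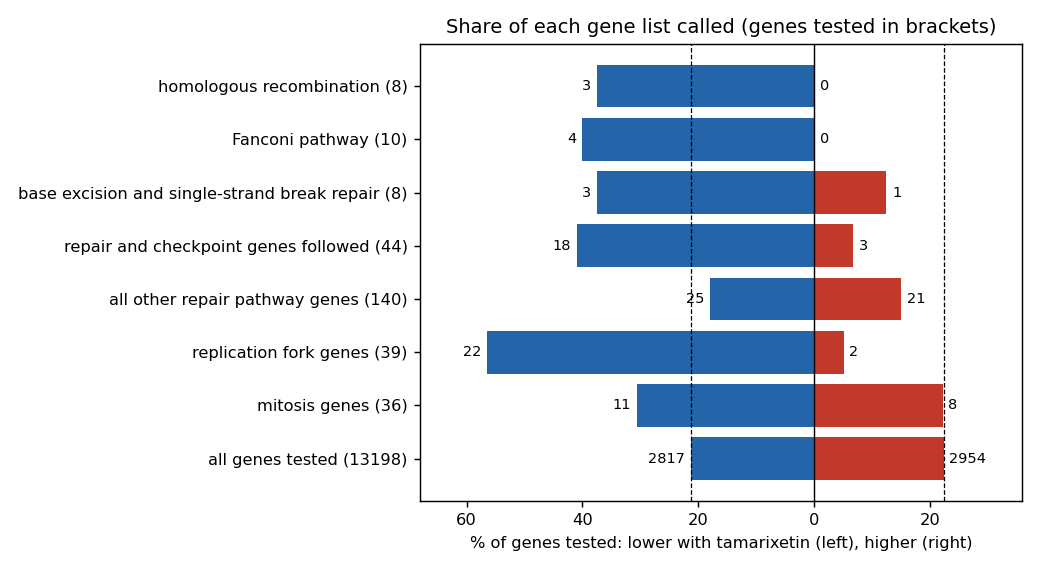
Share of each gene list called lower (blue, to the left) or higher (red, to the right) with tamarixetin, in percent of the genes tested, with the number called beside each bar; dashed lines give the shares over all genes tested. The repair genes stand at 40.9% lower and 6.82% higher, replication fork genes at 56.4% and 5.13%, and the other repair pathway genes at 17.9% and 15%.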

How the data were processed

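RNA of 6 HepG2 cultures was read with a QuantSeq 3′ kit, which counts the end of an mRNA, per the labels' protocols. The submitters' processing notes name fastp 0.23.1, STAR 2.7.10b, featureCounts 2.0.6 and GRCh38; the annotation release, the strand setting and whether molecular identifiers were used are not stated there. The authors deposited unnormalised counts by gene symbol, in 1 table for each library.

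Counts were analysed with edgeR 4.0.16 in R 4.3.3 (filterByExpr, TMM scaling, quasi-likelihood F test on group alone, Benjamini-Hochberg adjustment over 13198 genes, threshold 0.05). The SE was taken from the log2 fold change and F, and 95% intervals are built from it. On simulated data for this comparison (13063 genes tested), 66%, 82%, 90% and 98% of 50 genes each were recovered at folds of 1.25, 1.5, 2 and 3, with 8 false calls. The simulation gave every gene the same spread between libraries and changed far fewer genes than the 43.7% called here. Its recovery and false calls thus need not hold for these data. All 45 genes are named; of the other lists, up to 3 called genes with the smallest p and those called against the majority of their list; some genes that this rule would name are not reported here. The members and lists were chosen with earlier results of these data known; the partner ratios and the short E2F core were added after the values were seen. Gene positions and promoters come from RefSeq (GRCh38.p14), where 42739 of 43424 symbols matched; 5 strands were read from GENCODE. Ratios were compared on the log2 scale, with 0.5 added to each count, by exact permutation tests (scipy 1.17.1). Alternatives covered scaling (DESeq2 size factors, upper quartile, library size alone), a replicate block, the filter (none, or 5 CPM in 3 libraries), each library left out, DESeq2 1.42.0, limma-voom (limma 3.58.1), an adjusted p of 0.01 and a minimum fold of 1.2.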

Additional observations from a re-analysis of the deposited data

How the results depend on the processing

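Repair genes called lower numbered 17 to 20 and those called higher 2 to 4 under the scaling, filter, block, tool and leave-one-out alternatives, and 16 and 2 with an adjusted p of 0.01. In the main fit they numbered 18 and 3 of 44 tested, against 21.3% lower and 22.4% higher over all genes tested. When the test itself asked for a fold over 1.2, 8 of 44 repair genes were lower and 0 higher. Over all 13198 genes tested 1241 were lower and 1319 higher. The counts were 7 and 7 of 140 other repair pathway genes, 10 and 0 of 39 replication fork genes and 4 and 1 of 36 mitosis genes. By role, that test left 1 homologous recombination gene and 2 Fanconi genes lower, 0 RecQ helicases, 0 checkpoint genes in either direction, 0 replication protein A subunits, and 0 higher in mismatch and base excision repair. Of the genes that fell, 8 kept the call under every alternative run (UNG, RAD51AP1, MSH6, EXO1, LIG1, BRIP1, FANCL and MGMT). The number of mismatch repair genes called higher, 1 (PMS2), was 0 with at least 5 CPM in 3 libraries, where it was not tested, in DESeq2, in limma-voom and with an adjusted p of 0.01. Over the libraries left out in turn it ran from 0 to 1, as did RecQ helicases lower (0 to 1) and checkpoint genes higher (0 to 1). Base excision genes called higher were 2 with scaling by library size alone.

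Signs turned only in genes that were not called. With library size alone BRCA2 was at 0.028 and RAD54L at 0.020, and with upper-quartile factors FANCD2 was at -0.00053, FANCE at -0.027 and ATM at -0.027. Over the libraries left out in turn, BRCA2 ran from -0.082 to 0.094, RAD54L from -0.078 to 0.061, FANCD2 from -0.0040 to 0.053, FANCE from -0.11 to 0.14, BLM from -0.32 to 0.014, WRN from -0.087 to 0.22 and ATM from -0.034 to 0.056. The cause was not tested.

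Same-numbered libraries did not deviate together (correlations of 0.012, -0.016 and -0.0073 over 8646 genes, and not every library correlated best with its own number). Such small values cannot show whether same-numbered cultures shared a day or a batch, which the labels do not say. With the replicate block 18 repair genes were lower and 3 higher, as without it. FANCB, PMS2 and H2AX had low counts and wide intervals, and ERCC5 had too few counts to be tested; the part of depth in this was not tested.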

Other observations

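Several repair genes start within 1000 bases of a gene that runs the opposite way, and 15 such pairs were counted. BRCA1 has 2 listed starts far apart, each beside another gene. The start with the core match lies 193 bases from NBR2, a noncoding RNA within the span of BRCA1, which fell (log2 fold change -0.49, SE 0.110, adjusted p = 9.26e-05 in edgeR). The outer start lies 82 bases from NBR1, an autophagy receptor, which fell too (log2 fold change -0.53, SE 0.049, adjusted p = 3.64e-17 in edgeR). Counts at the 3′ end do not separate the starts. PMS2 starts 166 bases from AIMP2, a scaffold of tRNA synthetases, which rose as PMS2 did, at 136, 126 and 129 CPM in tamarixetin libraries, against 97.5, 97.9 and 95.5 CPM in control libraries (log2 fold change 0.43, SE 0.050). ATM starts 429 bases from NPAT, the activator of histone genes, which fell (-0.34, SE 0.095) while ATM was not called. TOPBP1, which was not called, starts 57 bases from the listed start of TF, the transferrin gene. TF fell to 1473, 1425 and 1403 CPM in tamarixetin libraries, against 2802, 2711 and 2770 CPM in control libraries. Counts at the 3′ end do not show whether the TF mRNA came from that start. Whether the genes of a pair differ in response was not tested.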
